A study of Mus musculus with 6 samples.

Results

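Chst2, Tspoap1, Cpe, Epm2a, Otud3 and Poln are 6 of the 16381 genes listed with a value in activated group 2 innate lymphoid cells (aILC2s) cultured with or without melatonin. They were chosen by their normalized counts in these same samples, low in vehicle and much higher with melatonin, with zinc-finger genes left aside. Those values are therefore described below without a test. All 6 passed the filter on low values, which kept the 14419 genes that reached 10 normalized counts in any sample. The rule had no numeric threshold.

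aILC2s were sorted to a purity above 95% from lungs of wild-type BALB/cJ mice that the study's methods give as female and 6 to 8 weeks old, after 0.5 µg of intranasal IL-33 daily for 3 days. All 6 samples therefore came from IL-33-exposed animals. The 3 melatonin samples were cultured for 24 h with 250 µM melatonin and the 3 vehicle samples for the same time with DMSO, its solvent. Bulk RNA was amplified with a cDNA kit that does not mark strand. The sources used here do not say whether the samples of a group came from separate animals or cultures. The sex-linked transcripts given below differed between melatonin replicate 1 and melatonin replicates 2 and 3, so these did not all come from the same animals. The spread between the vehicle samples, and between melatonin replicates 2 and 3, may be technical.

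Melatonin is the indoleamine hormone of the pineal gland, and ILC2s are lung-resident lymphocytes that release type 2 cytokines in response to IL-33. The 6 genes belong to no common pathway. Chst2 encodes a sulfotransferase that adds sulfate to N-acetylglucosamine on glycans such as L-selectin ligands. Cpe encodes carboxypeptidase E, which trims basic residues from prohormones. Epm2a encodes laforin, a phosphatase of glycogen that is lost in Lafora disease. Otud3 encodes an OTU-family deubiquitinase, which removes ubiquitin from other proteins. Poln encodes DNA polymerase nu, a polymerase able to copy past damaged bases. Tspoap1 encodes a scaffold that binds the mitochondrial protein TSPO and, at synapses, RIM proteins.

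Depth was similar across the libraries, between 17056267 and 20511700 estimated reads. Marker genes were tested with limma at an adjusted p under 0.05, by which 24.5% of all 14419 tested genes rose and 24.7% fell. The ILC2 marker genes were listed in full, 12 of 12, with summed normalized counts of 145395 to 153588 in vehicle and 111545 to 113941 with melatonin, and 2 of them rose and 7 fell. Although the methods give female mice, transcripts of the Y-linked genes Ddx3y, Eif2s3y, Kdm5d and Uty were present in all vehicle samples and in melatonin replicate 1 and were at 0 in melatonin replicates 2 and 3, where Xist stood at 579 and 1091 normalized counts against at most 13.6 elsewhere. Of 6 epithelial markers, 1 rose and 4 fell, with summed normalized counts of 939 to 2316 in vehicle and 1058 to 1261 with melatonin. Epcam was at 623, 745 and 634 in vehicle and at 1230, 1016 and 1046 with melatonin. In vehicle replicate 3 Scgb1a1 was at 1045 normalized counts against 95.2 and 21.5 in the other vehicle samples and at most 1.01 with melatonin. T cell markers had sums of 550 to 652 in vehicle and 93 to 179 with melatonin (4 of 4 tested fell), endothelial markers 1008 to 1069 and 310 to 416 (1 of 1 fell), macrophage markers 984 to 1166 and 261 to 663 (2 of 5 fell), and B cell markers 289 to 322 and 131 to 162 (1 of 1 fell). Pecam1 made up almost all of the endothelial sum in vehicle, at 1066, 1054 and 1001 normalized counts. Vwf was at most 7.34 in any sample, and Cdh5, Kdr, Cldn5 and Tek were not listed. Lyz2, at 981, 912 and 1094, made up most of the macrophage sum in vehicle. Cd79b, at 280, 314 and 297, made up most of the B cell sum there. The 6 fibroblast markers were not listed, and the mast cell, neutrophil and eosinophil lists summed to at most 76 in any sample. Whether any of these differences had a part in the values below was not tested. In bulk RNA, a change in the number of cells of one kind and a change in RNA per cell cannot be told apart.

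The regions just around the transcription start were read for Otud3 and Epm2a to show where short motifs linked to clock, redox and aryl hydrocarbon responses lie near the starts of these genes. Each window runs 5′ to 3′ from 250 bases before to 50 bases after the annotated start. The sequences are RefSeq's for GRCm38.p6, a different build from the mm39 of the deposited values. The Chst2 window was searched as well, Tspoap1 and Cpe had no entry, and Poln was not used here. Capitals mark matches to the motifs named in the next paragraph.
Otud3, chr4:138913919-138914218, minus strand: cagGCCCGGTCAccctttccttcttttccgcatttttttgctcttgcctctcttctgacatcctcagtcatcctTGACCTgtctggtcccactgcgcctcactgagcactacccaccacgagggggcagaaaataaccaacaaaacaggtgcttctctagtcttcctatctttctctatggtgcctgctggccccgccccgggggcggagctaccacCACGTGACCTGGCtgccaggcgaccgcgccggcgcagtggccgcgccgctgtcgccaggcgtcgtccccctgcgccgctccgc
Epm2a, chr10:11343195-11343494, plus strand: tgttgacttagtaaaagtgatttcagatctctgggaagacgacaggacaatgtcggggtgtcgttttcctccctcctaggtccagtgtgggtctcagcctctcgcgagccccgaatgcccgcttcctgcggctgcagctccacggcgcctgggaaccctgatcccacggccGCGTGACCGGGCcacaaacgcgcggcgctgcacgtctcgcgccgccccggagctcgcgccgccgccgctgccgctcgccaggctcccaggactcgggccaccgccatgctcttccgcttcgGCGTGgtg

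Both strands were searched for each motif, and offsets count from the transcription start. The E-box CACGTG, bound by CLOCK and BMAL1 among other factors, lay in Otud3 at -33 and in 7.15% of the 32851 windows. The letters TGACNNNGC of the antioxidant response element lay in Otud3 at -247 and -29 and in Epm2a at -76, and in 12.4% of all windows. AGGTCA, a site of ROR and REV-ERB receptors, lay in Otud3 at -176 and -29 and in 16.3% of windows. The E-box, response element and receptor site of Otud3 overlap each other near -29, so these are not separate matches. GCGTG, the core of the aryl hydrocarbon receptor site, lay in Epm2a at -79, overlapping the response element there, and at 42, against 32.4% of windows. CCAAT and the cAMP response element TGACGTCA lay in none of the Otud3, Epm2a and Chst2 windows and in 37.4% and 1.79% of all. The Chst2 window held none of these letters. These windows were rich in CpG, with 22 sites in Otud3, 35 in Epm2a and 34 in Chst2 against a median of 7 over all windows. A match is a run of letters and not a bound site.

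Otud3 (ENSMUSG00000041161) had the largest difference of the 6 and held rank 5 of the 14419 genes tested. It lies on the minus strand of GRCm39 at chr4:138620953-138641294. In vehicle its normalized counts were 2.80, 0 and 2.10, and with melatonin they were 75.6, 106 and 87.5. Every melatonin sample stood far above every vehicle sample, and the vehicle counts rested on 3, 0 and 2 reads. The means were 1.63 ± 1.46 and 89.7 ± 15.3 (SD, n = 3 per group), a difference of 5.30 on the log2(value + 1) scale. The ratio of summed reads, scaled for library depth by the value of 1 read, was 55.0, with a 95% Clopper-Pearson interval of 23.3 to 171 that, like the others below, covers counting error only.

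Cpe (ENSMUSG00000037852), at chr8:65045555-65146435 on the minus strand, held rank 10. Its normalized counts were 2.80, 3.75 and 3.15 in vehicle and 49.5, 69.9 and 66.3 with melatonin. The groups did not overlap and the vehicle samples lay within a single read of one another. The means were 3.23 ± 0.479 and 61.9 ± 10.9 (SD, n = 3 per group), the log2 difference 3.88 and the read ratio 19.0 (95% interval 10.1 to 40.2).

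Epm2a (ENSMUSG00000055493), at chr10:11219132-11335388 on the plus strand, held rank 14. Its normalized counts were 2.80, 2.81 and 1.05 in vehicle and 37.4, 30.6 and 43.2 with melatonin. No melatonin sample came near a vehicle sample. The means were 2.22 ± 1.01 and 37.1 ± 6.32 (SD, n = 3 per group), the log2 difference 3.61 and the read ratio 16.4 (95% interval 7.72 to 41.9).

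Poln (ENSMUSG00000045102), at chr5:34164523-34326929 on the minus strand, held rank 18. Its normalized counts were 1.87, 2.81 and 3.15 in vehicle and 34.6, 47.0 and 31.2 with melatonin. Again the groups were far apart, with melatonin replicate 2 the highest. The means were 2.61 ± 0.664 and 37.6 ± 8.33 (SD, n = 3 per group), the log2 difference 3.41 and the read ratio 14.4 (95% interval 7.05 to 34.2).

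Chst2 (ENSMUSG00000033350), at chr9:95281345-95289832 on the minus strand, held rank 13 and was not near silent in vehicle. Its normalized counts were 45.7, 52.5 and 116 in vehicle and 1254, 1004 and 435 with melatonin. The highest vehicle sample, replicate 3, is also the one with high Scgb1a1, and the lowest melatonin sample was still 3.74 times that value. The means were 71.6 ± 39.0 and 898 ± 420 (SD, n = 3 per group), the log2 difference 3.62 and the read ratio 12.9 (95% interval 11.3 to 14.9). The difference was 4.04 without vehicle replicate 3 and 4.08 without melatonin replicate 3.

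Tspoap1 (ENSMUSG00000034156), at chr11:87651330-87676754 on the plus strand, held rank 41 and was likewise well detected in vehicle. Its normalized counts were 122, 145 and 118 in vehicle and 809, 1413 and 1000.2 with melatonin. The vehicle samples were close together and every melatonin sample was above them, replicate 2 most of all. The means were 128 ± 14.8 and 1074 ± 309 (SD, n = 3 per group), the log2 difference 3.02 and the read ratio 8.22 (95% interval 7.40 to 9.15).

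**Figure D1:**
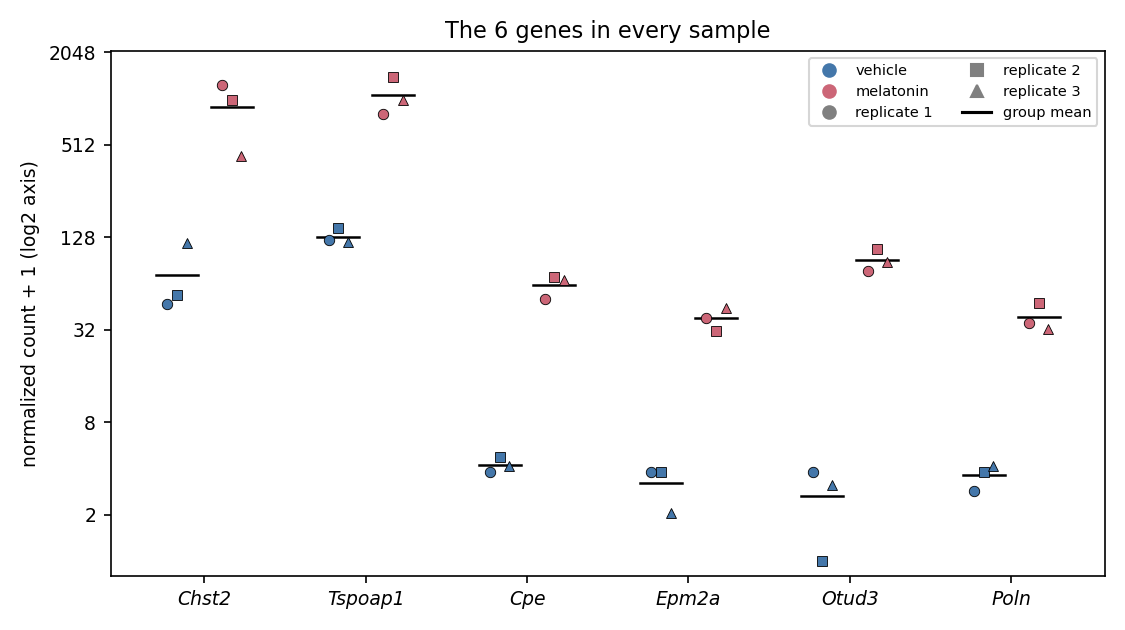
Normalized counts plus 1 (log2 axis) of the 6 genes in each vehicle (blue) and melatonin (red) sample, with symbols for the replicate and a bar for the group mean. Otud3, Cpe, Epm2a and Poln sit at or below 3.75 normalized counts in vehicle, whereas Chst2 and Tspoap1 start from means of 71.6 and 128.

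The name "nearly silent until melatonin" therefore fitted 4 of the 6 genes, those with at most 4 reads in every vehicle sample. Chst2 and Tspoap1 stood at the 36.3rd and 41.5th percentile of vehicle means among all 16381 listed genes, tested or not. The other 4 stood between the 2.23rd and the 7.37th. With melatonin, Otud3, Cpe, Epm2a and Poln reached only the 32.0th to 38.8th percentile of listed genes. All 6 genes had 3 melatonin values above all 3 vehicle values, a count taken on the values that chose them, and 30.0% of tested genes had such values. Their median log2 difference was 3.62 against -0.00 for all tested genes. Differences at least as large as that of Tspoap1 occurred in 41 genes, 0.284% of those tested, of which 6 are members by choice.

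The genes ranked next to each member by log2 difference are given for comparison. Otud3 stood between Zfp433 at 5.56 and Zfp973 at 4.92 on the log2 scale, and Cpe between Fam222a at 3.94 and Zxda at 3.65. Ret at 3.64 was above Chst2, Epm2a followed Chst2, and Slc25a31 at 3.54 was below Epm2a. Poln stood between Atp1b2 at 3.43 and Rhbdl3 at 3.39, and Tspoap1 between Lypd6 at 3.05 and Rhou at 3.02.

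**Figure D2:**
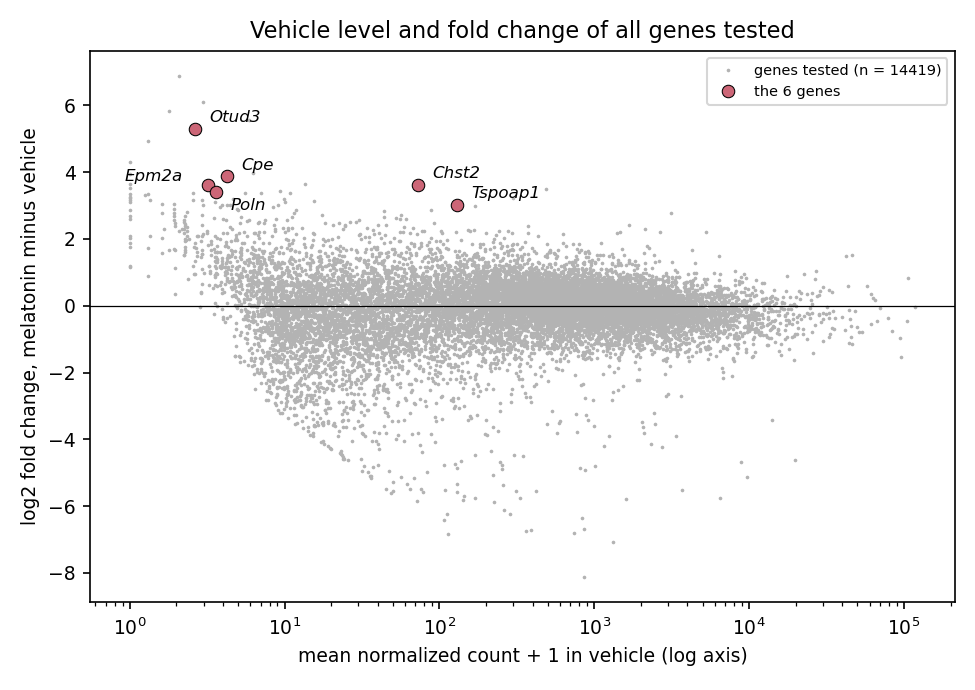
Mean normalized count plus 1 in vehicle (log axis) against the log2 difference between melatonin and vehicle for each of the 14419 genes tested, with the 6 genes in red. Otud3, Cpe, Epm2a and Poln lie at the upper left, and Chst2 and Tspoap1 at higher vehicle levels.

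Per kilobase of exon, the order of mean levels in vehicle was Tspoap1, Chst2, Cpe, Epm2a, Poln and Otud3, at 13.4, 8.53, 0.902, 0.672, 0.445 and 0.374 normalized counts per kb. Tspoap1 and Chst2 overlapped in their samples, and so did each of the other neighbouring pairs except Chst2 and Cpe. With melatonin the order was Tspoap1 at 112, Chst2 at 107, Otud3 at 20.5, Cpe at 17.3, Epm2a at 11.2 and Poln at 6.41 normalized counts per kb. Otud3, last in vehicle, now followed Chst2 and overlapped Cpe. Tspoap1 and Chst2 overlapped too, whereas the samples of Chst2 and Otud3, of Cpe and Epm2a, and of Epm2a and Poln did not. The median tested gene stood at 70.0 per kb in vehicle and 71.6 with melatonin, so Otud3, Cpe, Epm2a and Poln had mean levels below the typical gene in both groups. Tspoap1 and Chst2 had means below it only in vehicle, although Chst2 in melatonin replicate 3 was also below it.

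The members also differed in how far the melatonin samples spread. Chst2 had a coefficient of variation of 46.7% where counting alone gives 3.34%, and Tspoap1 had 28.7% where counting gives 3.08%. Counting error is small at their read numbers, and the spread of other genes at these levels was not compared. For Epm2a the value was 17.1% against 16.4% from counting, and for Cpe, Otud3 and Poln it was 17.6%, 17.1% and 22.2% against 12.8%, 10.6% and 16.4%. Chst2 was lowest in melatonin replicate 3, Epm2a in replicate 2 and Tspoap1 in replicate 1. With only the 4 libraries that held Y-linked transcripts, which leaves 1 melatonin sample, the log2 difference was 4.24 for Chst2, 2.65 for Tspoap1, 3.58 for Cpe, 3.63 for Epm2a, 5.07 for Otud3 and 3.32 for Poln.

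Family and pathway genes of each member were then tested with limma on the log2 values, with Benjamini-Hochberg adjustment over all tested genes. In that test 3529 genes rose (24.5%) and 3565 fell (24.7%), and after a correction for transcript length 2601 rose and 4200 fell. Of 127 family genes, 95 were listed and 90 tested, of which 21 rose and 21 fell, 23.3% each way, and after length correction 12 rose and 25 fell.

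Among the sulfotransferases and the enzymes that build the glycans they modify, 4 of 17 tested genes rose and 5 fell. Chst15, which sulfates chondroitin sulfate chains, rose from 21.6 ± 0.767 to 71.2 ± 20.8 normalized counts (SD, n = 3 per group; log2 fold change 1.64 ± 0.27 SE, limma adjusted p = 0.00144). Slc35b2, a Golgi transporter of the sulfate donor PAPS, rose by 0.94 ± 0.11 (adjusted p = 0.000303). Chst11, a chondroitin 4-O-sulfotransferase, fell by 1.23 ± 0.23 (adjusted p = 0.00282), and Fut7, the fucosyltransferase of selectin ligands, fell by 0.71 ± 0.18 (adjusted p = 0.0108), a call lost with only the libraries holding Y-linked transcripts. The closest relatives of Chst2 were scarce. Chst7 had 3.19 ± 0.948 and 7.94 ± 4.53 normalized counts (limma adjusted p = 0.172), Chst1 was at 4.66 ± 4.27 and 3.34 ± 1.49 and was not tested, and Chst4 was not listed.

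Of the peptide processing genes around Cpe, 4 of 12 tested rose and 4 fell. Adm and Chga, 2 of the 4, passed the filter on low values only through 1 melatonin sample each, and among the 10 that passed it in both groups 2 rose and 4 fell. Calca, the gene of calcitonin and CGRP, rose from 297 ± 12.6 to 2802 ± 491 normalized counts (SD, n = 3 per group; log2 fold change 3.22 ± 0.13 SE, limma adjusted p = 2.0e-06). Adm, which encodes adrenomedullin, had 1.25 ± 1.43 and 11.8 ± 7.46 normalized counts, with a highest value of 20.1 in melatonin replicate 3, without which it was not tested. Penk, the enkephalin precursor, fell by 2.73 ± 0.50 (adjusted p = 0.0023), and Pcsk4, a proprotein convertase, fell by 2.69 ± 0.30 (adjusted p = 0.000225). Pcsk1, the convertase that acts before carboxypeptidase E on many prohormones, was abundant at 2997 ± 136 and 3148 ± 425 normalized counts (log2 difference 0.06 ± 0.10 SE, adjusted p = 0.632), and Pcsk2 was not listed.

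Because Cpe is typical of neuroendocrine cells, markers of those cells were read beside it. Of 10, 4 were listed, with a summed level of 185 to 211 normalized counts in vehicle and 415 to 449 with melatonin, and Syp and Uchl1 rose. Syp, a synaptic vesicle protein, was at 37.3, 41.4 and 40.9 in vehicle and 167, 216 and 172 with melatonin (log2 fold change 2.18 ± 0.19 SE, limma adjusted p = 7.41e-05). Uchl1, a ubiquitin hydrolase abundant in neurons, was at 147, 170 and 162 and then at 236, 209 and 258 (log2 fold change 0.55 ± 0.14 SE, limma adjusted p = 0.012). Chga was at 0.933, 0 and 1.05 and then at 5.60, 16.4 and 3.02, and was tested only because melatonin replicate 2 passed the filter on low values. Chgb was at 0 in vehicle and at 6.54, 7.65 and 1.01 with melatonin. Resp18, Scg5, Snap25, Syt1 and Insm1 were among those not listed. The sort took live cells with CD45, ST2 and CD127 on their surface and no lineage marker. The part of these transcripts in the Cpe values was not tested.

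Of 21 tested genes of glycogen metabolism around Epm2a, 7 rose and 3 fell. Pygl, a glycogen phosphorylase, rose from 66.5 ± 13.1 to 143 ± 13.6 normalized counts (SD, n = 3 per group; log2 fold change 1.11 ± 0.20 SE, limma adjusted p = 0.0024). Gbe1, the branching enzyme, rose by 1.05 ± 0.16 (adjusted p = 0.000984), and Phkb, a subunit of phosphorylase kinase, by 0.71 ± 0.11 (adjusted p = 0.000982). Ppp1r3f, which targets protein phosphatase 1 to glycogen, rose by 0.69 ± 0.18 (adjusted p = 0.0135), a call lost without vehicle replicate 2. Gys1, glycogen synthase, fell by 0.49 ± 0.09 (adjusted p = 0.00294). Nhlrc1, which encodes the ubiquitin ligase malin that works together with laforin, was at 32.8 ± 12.1 and 34.3 ± 7.01 normalized counts (log2 difference 0.10 ± 0.33 SE, adjusted p = 0.814).

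Among 14 tested genes of the OTU deubiquitinase list, 3 rose and 2 fell. Otud1 rose from 23.6 ± 15.1 to 114 ± 17.1 normalized counts (SD, n = 3 per group; log2 fold change 2.38 ± 0.39 SE, limma adjusted p = 0.00135). Zranb1 rose by 0.66 ± 0.19 (adjusted p = 0.0208), a call lost without vehicle replicate 1, without melatonin replicate 2, after length correction and by limma without trend. Otub1 fell by 0.77 ± 0.11 (adjusted p = 0.000847).

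Of 14 tested translesion and repair polymerases with their partners, 3 rose and 2 fell. Pcna, the sliding clamp, fell from 6465 ± 226 to 3721 ± 111 normalized counts (SD, n = 3 per group; log2 fold change -0.80 ± 0.07 SE, limma adjusted p = 8.55e-05). Primpol, a primase and polymerase, rose by 0.68 ± 0.10 (adjusted p = 0.000734). Polh fell by 0.47 ± 0.14 (adjusted p = 0.0245) and Poli rose by 0.38 ± 0.14 (adjusted p = 0.0464), and both calls were lost under several alternatives, among them leaving out vehicle replicate 1, vehicle replicate 3 or melatonin replicate 2. Polq, the closest relative of Poln, had a log2 difference of -0.43 ± 0.18 (adjusted p = 0.0783), and Helq, a helicase of the same repair processes, one of 0.12 ± 0.12 (adjusted p = 0.424).

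Around Tspoap1, 0 of 12 tested genes rose by limma and 5 fell. At an unadjusted p under 0.05, and by voom on estimated reads, 0 were higher as well. Vdac2, a channel of the outer mitochondrial membrane, fell from 5523 ± 172 to 2677 ± 168 normalized counts (SD, n = 3 per group; log2 fold change -1.05 ± 0.08 SE, limma adjusted p = 3.86e-05). Vdac1 fell by 0.72 ± 0.10 (adjusted p = 0.000678) and Rims3, a RIM protein, by 0.57 ± 0.14 (adjusted p = 0.0108). Dbi, a ligand of TSPO, fell by 0.31 ± 0.10 (adjusted p = 0.0343), a call lost under 8 alternatives. Tspo itself was at 5895 ± 142 and 5650 ± 307 normalized counts (log2 difference -0.06 ± 0.07 SE, adjusted p = 0.506), and Rimbp2 was not listed.

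**Figure D3:**
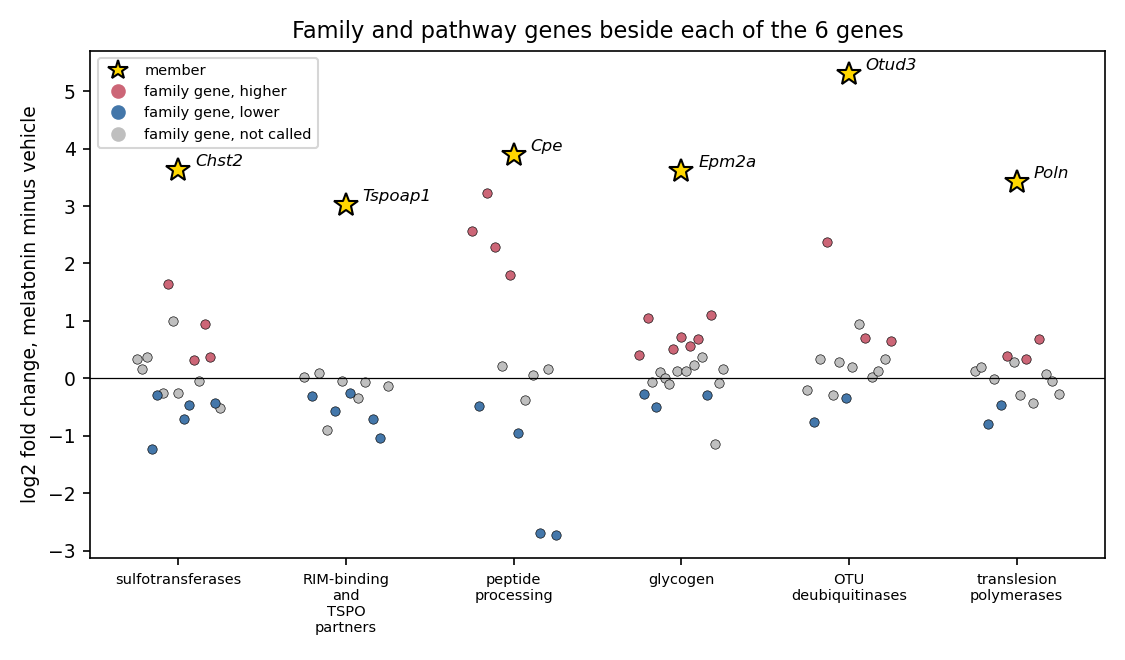
Log2 difference between melatonin and vehicle of each tested family gene, by family, in red where it rose, blue where it fell and grey where it did not pass the test, with a star for the member. Family genes range from Penk at -2.73 to Calca at 3.22, and the height of the stars is set by how the members were chosen.

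The 6 genes lie on 6 different chromosomes. The 3 nearest protein-coding genes on either side and all genes overlapping a member made 46 neighbours, of which 22 were listed and 21 tested. By limma 11 rose (52.4%) and 2 fell (9.52%), beside 24.5% and 24.7% of all tested genes, and after length correction 4 rose (19.0%) and 1 fell (4.76%), beside 18.1% and 29.2% of all genes under that correction. The largest difference was that of Dipk2a beside Chst2, which lies 861 kb away and rose from 432 ± 132 to 1806 ± 477 normalized counts (SD, n = 3 per group; log2 fold change 2.08 ± 0.26 SE, adjusted p = 0.00037). Plod2 rose by 0.63 and U2surp by 0.35, a call lost after length correction, and Slc9a9 had a difference of 0.04. Beside Cpe, Klhl2, Msmo1, a sterol oxidase, and Tmem192 rose by 1.22, 0.85 and 0.34, and the call on Klhl2 was lost under 8 alternatives and that on Tmem192 after length correction.

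Beside Epm2a, Fbxo30 rose by 0.65 on the log2 scale and Utrn by 0.78, a call lost after length correction, whereas Shprh, Stx11 and Sf3b5 had differences of 0.15, -0.21 and -0.15 that did not pass the limma test. Beside Otud3, Tmco4 rose by 0.53, a call lost after length correction and with only the libraries holding Y-linked transcripts, and Pla2g5 had a difference of -1.07 (limma adjusted p = 0.101). Beside Tspoap1, Supt4a fell by 0.33, a call lost under 7 alternatives, Rnf43 and Mks1 had differences of -0.38 and 0.03, and Mpo was listed at up to 4.37 normalized counts and was not tested. Beside Poln, Mxd4 rose by 0.70, a call lost after length correction and by limma without trend, Nelfa fell by 0.31 and Nicol1 had a difference of 0.06.

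Haus3, a subunit of the augmin complex of the spindle, lies within Poln on the same strand and shares 380 exonic bases with it, 6.48% of the exonic length of Poln. It was at 1377 ± 87.7 normalized counts in vehicle and 1791 ± 178 with melatonin (SD, n = 3 per group; log2 fold change 0.38 ± 0.10 SE, limma adjusted p = 0.0112), a call lost after length correction. Reads in the shared bases could be assigned to either gene, so the level of Poln is uncertain. Chst2 shares 425 and 376 exonic bases with a pair of opposite-strand genes that were not listed, and Poln shares 113 and 139 with the opposite-strand 4930557J02Rik and Gm71353, also not listed. Reads of both strands cannot be told apart with this kit.

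**Figure D4:**
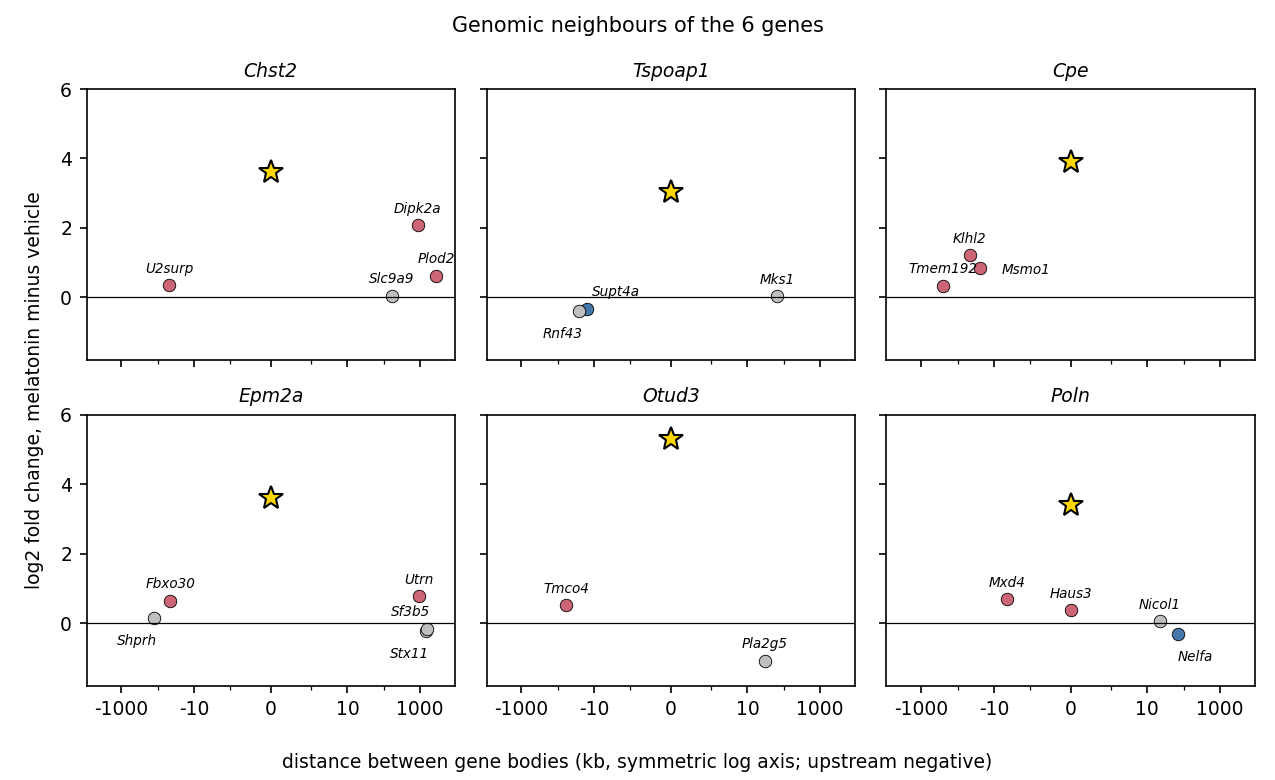
Log2 difference between melatonin and vehicle of each tested neighbour against its distance from the member in kb (symmetric log axis, upstream negative, overlapping genes at 0), in red where it rose, blue where it fell and grey otherwise, with a star for the member. The neighbours range from Pla2g5 at -1.07 to Dipk2a at 2.08, and the height of the stars is set by how the members were chosen.

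The genes most like each member were found by the root mean square difference over the 6 samples of centred log2 values. For Cpe they were Fam222a at 0.0998, Macroh2a1, a histone variant gene, at 0.241 and Tmeff2 at 0.245. For Epm2a they were Atp1b2 at 0.264, Lypd6 at 0.284 and Macroh2a1 at 0.316, and for Poln Macroh2a1 at 0.270, Gm26781 at 0.288 and Rhbdl3 at 0.292. Tspoap1 was nearest to Gm26781 at 0.171, Smpd3 at 0.279 and Cyp4f13 at 0.307. Chst2 was nearest to Rhbdl3 at 0.438, Zxda at 0.521 and Gm14308 at 0.531. Otud3 was nearest to Zfp965 at 0.378, Tmeff2 at 0.783 and Gm14308 at 0.818. Among the members themselves, Tspoap1 and Poln were the most alike at 0.297 and Tspoap1 and Otud3 the least at 1.34. These distances take in the difference between the groups by which the members were chosen, and no alternative setting was run for them.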

How the data were processed

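Sequencing covered 3 vehicle and 3 melatonin samples of sorted lung aILC2s. The authors trimmed reads and quantified them in Partek Flow after STAR alignment to mm39, with Gencode genes and an algorithm that divides ambiguous reads. The authors then dropped low genes and deposited a signal per gene, normalized counts obtained by median ratio scaling. The value of 1 read was the most frequent value between 0.5 and 1.5 in each sample. Under 60, between 72.0% and 73.6% of values above 0 were whole reads at a tolerance of 0.01, so whole reads were not recovered for the table, although all values of the 6 genes were whole. Library depth, 17056267 to 20511700 estimated reads, puts genes of a few reads at wide counting intervals.

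Genes were tested with limma 3.58.1 in R 4.3.3 (lmFit, eBayes with trend, treatment as the only term) on the log2 of the value plus a pseudocount of 1 for genes that reached 10 normalized counts in any sample. Adjustment was by Benjamini-Hochberg over 14419 genes with a threshold of 0.05. The script was tested on simulated counts. Fold changes on this scale understate the change of low genes. Gene names and GRCm39 positions came from Gencode release M39 and matched 16334 genes. Other software was Python 3.11.15 with scipy 1.17.1, numpy 2.4.6, pandas 2.3.3 and matplotlib 3.10.9.

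The members and lists were chosen with earlier results of these data known. Family genes named are the 4 largest changes past the threshold in each list and 12 fixed partners of the members. All tested neighbours and the 3 genes most like each member are named. Items withheld for evaluation are not reported here. Chga, Chgb, Syp and Uchl1 are named as cell type markers. Alternatives were pseudocounts of 0.1 and 10, other scalings, a length correction (lowess span 0.3), no filter or a mean of at least 100, limma without trend, voom on estimated reads, each sample left out, only libraries with Y-linked transcripts, and the replicate number as a block.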

Additional observations from a re-analysis of the deposited data

How the results depend on the processing

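Of 192 recomputed values, 171 stayed within the spread of the main value or within 1.5 times the main count, 21 moved and 0 reversed. The pseudocount mattered most for genes with few reads in vehicle: with 0.1 the log2 differences were 4.21 for Cpe, 4.11 for Epm2a, 6.69 for Otud3 and 3.81 for Poln, and with 10 they were 2.43, 1.94, 3.10 and 1.90. Quantile normalization gave 4.17 for Cpe, 4.01 for Epm2a and 3.74 for Poln. With only libraries holding Y-linked transcripts, Tspoap1 was at 2.65 and Cpe at 3.58, and 4 neighbours were lower. Correction for transcript length left 12 family genes and 4 neighbours higher and 1 neighbour lower and moved the median of all genes to -0.10. Limma without the trend left 1 neighbour lower. The cause of these shifts was not tested. Leaving out each sample in turn gave 3.32 to 4.08 for Chst2, 2.81 to 3.21 for Tspoap1, 3.79 to 4.04 for Cpe, 3.31 to 3.76 for Epm2a, 4.71 to 5.67 for Otud3 and 3.25 to 3.53 for Poln. It gave 2747 to 3454 genes higher and 2708 to 3619 lower, 14 to 20 family genes higher and 15 to 23 lower, and 10 to 11 neighbours higher and 1 to 2 lower. Of 55 called family and neighbour genes, 27 kept their call under every alternative run and 0 changed sign.

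Samples with the same replicate number did not deviate together, with correlations across genes of -0.054, 0.0064 and -0.048. With the replicate number as a block, 3160 genes were higher and 3278 lower, 17 family genes were higher and 19 lower, and 10 neighbours were higher and 2 lower.

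With 3 samples per group, levels resting on 1 to 4 reads limit how closely the size of a difference can be stated.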

Other observations

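Genes with at most 4 reads in every vehicle sample and at least 25 in every melatonin sample numbered 7, namely Otud3, Cpe, Epm2a and Poln together with Gm4724, Zfp781b and Zfp965. The 3 others were singled out by this count after their values were seen. Zfp965 was at 1.18, 0 and 1.22 normalized counts in vehicle and at 96.3, 94.6 and 93.1 with melatonin. The opposite pattern, at most 4 reads in every melatonin sample and at least 25 in every vehicle sample, was met by 23 genes.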
